A study of Mus musculus with 346 samples.

Results

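The cytosolic ribosomal protein genes were followed through 346 single-cell RNA-seq libraries from the mammary glands of female FVB/NJ mice. Members were the protein-coding genes with the symbol Rpsa, Rplp0, Rplp1 or Rplp2, or with Rps or Rpl followed by digits and an optional a, x or l. The rule found 81 members among the 27179 genes of the count files, of which 31 belonged to the small subunit and 50 to the large subunit. Pseudogenes and the Rps6k kinases were left out. The cells had been sorted as total epithelium, without red cells, endothelium and leukocytes, and captured one by one on a Fluidigm C1 chip, a microfluidic device that turns the polyadenylated RNA of each cell into cDNA. They came from 3 untreated stages with 8 mice each by the deposited design text (the study itself gives other numbers of mice per sort), namely pre-puberty (2 weeks, 144 cells), puberty (4.7 to 4.9 weeks, 136 cells) and adult (10 weeks, 66 cells). After a coverage filter of 100000 read pairs and 1500 genes, 116, 119 and 43 cells were kept, 278 in all. The labels did not tie cells to mice, so each stage was 1 sample and no test between stages was possible. All intervals below cover counting error only, and the spread over cells is a description.

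Ribosomal proteins assemble with ribosomal RNA into the small and large subunits, which decode mRNA and join amino acids. Their mRNAs are among the most abundant of a growing cell, are made in roughly matched amounts, and begin with a tract of pyrimidines (the TOP motif) through which growth signals adjust their translation. In the mammary gland, demand for ribosomes accompanies the growth of the ducts at puberty and the synthesis of milk proteins.

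The stage labels went together with a difference in cell type that bears on every value that follows. Cells of pre-puberty carried a median of 18 of 24 Schwann cell (peripheral glia) markers and 0 of 10 luminal markers when each cell was thinned to 100000 reads, whereas pubertal cells carried 2 and 8 and adult cells 2 and 6. The summed level of the Schwann markers was 595 to 90537 CPM (reads per 1000000 reads on all genes) over pre-pubertal cells, with a median of 28080 CPM and none of the 24 genes at 0. Its median was 122 CPM at puberty, with Ngfr, Sox2 and Zfp536 at 0 and 130079 CPM in the highest cell, and 401 CPM in adults, with 7 of the 24 at 0, Gfra3 and Egfl8 among them. Fibroblast markers also moved with stage, with medians of 5, 1 and 1 of 14 per thinned cell in order of age. Their summed level had a median of 5987 CPM at pre-puberty (215 to 148406 CPM over cells), 15.5 CPM at puberty and 90.0 CPM in adults, where the highest cells reached 56573 and 30264 CPM, and none of the 14 genes was at 0 at any stage. The part of these markers in the results was not tested. Stage and cell type therefore cannot be told apart for most pre-pubertal cells. Median depth was 312068, 669059 and 402803 reads per kept cell at the 3 stages, and the mitochondrial share of reads was 4.22%, 11.3% and 12.4%. Among the pre-pubertal cells, the 12 kept cells numbered 1 to 37 were read more deeply than the 104 kept cells numbered 38 to 144, with medians of 1008310.5 and 298367 reads. The labels name no such blocks, and the cut at cell 38 was made here. These medians describe only cells that passed the filter, and the 28 left-out cells of this stage had a median of 12902.5 reads. No pair of the 346 files held identical counts.

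Ribosomal protein genes took a smaller share of the reads at pre-puberty than later. Pooled over kept cells, they held 0.635% of reads at pre-puberty (95% exact binomial interval 0.632 to 0.637%, 274928 of 43313724 reads), 1.34% at puberty (1.33 to 1.34%, 1069027 reads) and 1.69% in adults (1.69 to 1.70%, 368736 reads). Over single cells the share ran from 0.0963% through a median of 0.525% to 1.77% at pre-puberty, from 0.223% through 1.33% to 3.34% at puberty, and from 0.126% through 1.71% to 3.02% in adults. The ranges overlapped, but 109 of 116 pre-pubertal cells lay under the pubertal median and 3 of 119 pubertal cells under the pre-pubertal one. A share above 1% was seen in 11 of 116 cells at pre-puberty (9.48%, exact interval 4.83 to 16.3%), in 85 of 119 at puberty (71.4%) and in 33 of 43 in adults (76.7%). The share is relative to all reads of a cell, and RNA per cell was not measured.

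**Figure D1:**
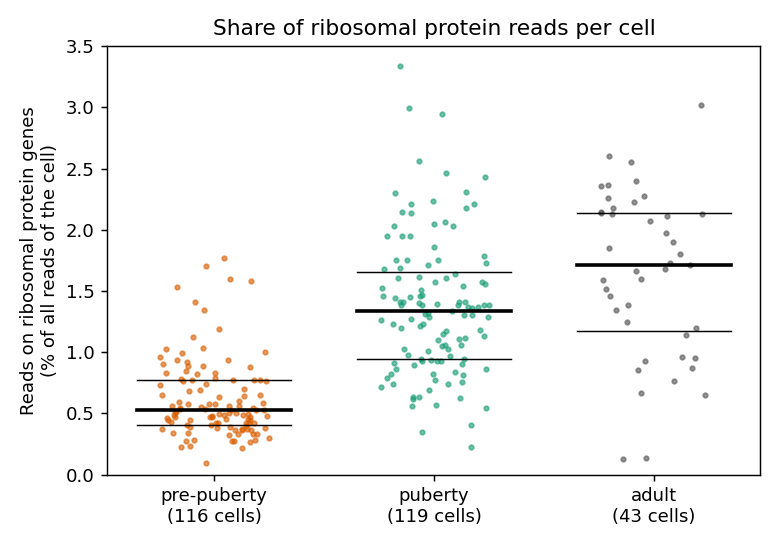
Share of reads on the 81 ribosomal protein genes in each kept cell (y axis, % of all reads of the cell) at the 3 stages (x axis). Each point is a cell, the thick line the median and the thin lines the quartiles. The medians are 0.525%, 1.33% and 1.71%, and the ranges overlap.

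Both subunits showed the same order of stages. Small subunit members held 0.252%, 0.570% and 0.685% of reads at pre-puberty, puberty and adulthood, and large subunit members 0.382%, 0.766% and 1.01%. The kept cells of the 2 runs of pre-pubertal cell numbers differed little in share, with 0.677% in cells 1 to 37 and 0.620% in cells 38 to 144. The 2 runs were not alike in coverage, as only 12 of cells 1 to 37 passed the filter, beside 104 of cells 38 to 144. When mitochondrial reads were left out of the total, the shares were 0.663%, 1.51% and 1.93%. In cells of like depth (200000 to 600000 reads), the share was 0.622% at pre-puberty, 1.55% at puberty and 1.66% in adults, so that the gap between puberty and adulthood shrank while the gap to pre-puberty did not. Thinned to 100000 reads, the median cell had a read on 45 of the 81 members at pre-puberty, 57 at puberty and 55 in adults (52.5, 67 and 65 before thinning).

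A few members held most of the reads. The 10 most abundant members, with Rpl4, Rpl8, Rps3, Rpl7, Rpl41, Rps14, Rpl14 and Rps20 among them, held 56.4%, 54.2% and 53.6% of member reads at the 3 stages. Of the 81 members, 34 reached 100 CPM at 1 stage or more and 17 at all stages, 32 peaked between 10 and 100 CPM, and 15 stayed under 10 CPM throughout (Rpl11, Rpl13, Rpl28, Rpl29, Rpl39 and Rps2 among them). Among the 66 members that reached 10 CPM, 55 were highest in adults, 9 at puberty and 2 at pre-puberty, and 60 were lowest at pre-puberty.

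Rpl4 (Entrez 67891, chr9:64173387-64178562 of mm10), which lines the exit tunnel of the large subunit, was the most abundant. Over cells its level ran from 0 through a median of 614 to 2312 CPM at pre-puberty, from 0 through 1034 to 7097 CPM at puberty and from 0 through 1061 to 4550.0 CPM in adults. Pooled, it stood at 708 CPM (exact Poisson 95% interval 700.2 to 716), 1190.2 CPM (1183 to 1198) and 1399 CPM (1383 to 1415). Its medians at puberty and adulthood were thus close, and the cells of all 3 stages overlapped.

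Rpl8 (Entrez 26961, chr15:76904071-76906318), a protein of the large subunit near the peptidyl transferase centre, reached 509, 739.8 and 1149 CPM, with cell medians of 410.5, 581 and 1019 CPM. Rps3 (Entrez 27050, chr7:99477896-99483709), at the mRNA entry of the small subunit, reached 425, 928 and 988 CPM, with cell medians of 309, 867 and 985 CPM. Both genes were lowest at pre-puberty in the pooled cells. Rpl41 (Entrez 67945, chr10:128548110-128549168), which encodes a very short basic peptide, was read in every kept cell of all 3 stages, between 15.5 and 1646 CPM at pre-puberty, 88.4 and 2369 CPM at puberty and 13.0 and 1812 CPM in adults. Per length it was the highest member, at a mean of 1294 RPKM (CPM per 1000 bases of gene length) over the stages. Rps20 was at 1006 RPKM and Rpl4 at 773 RPKM on the same scale.

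**Figure D2:**
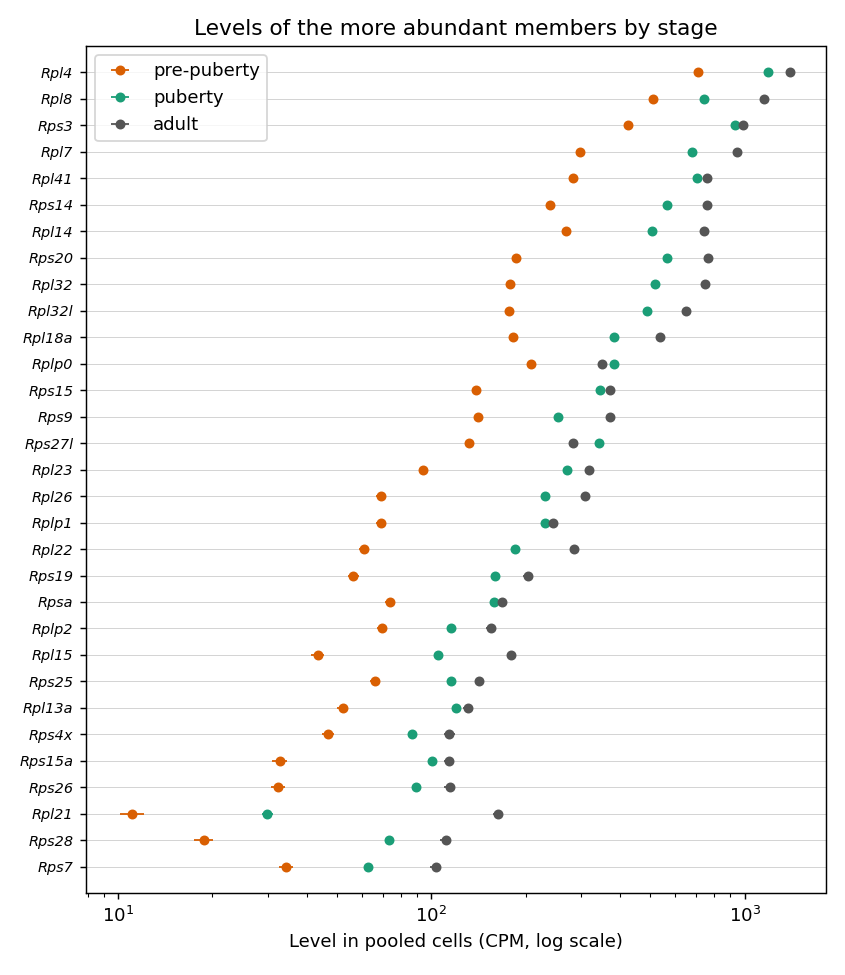
Pooled level of 31 of the 34 members that reached 100 CPM at 1 stage or more (x axis, CPM on a log scale), 1 row per gene in order of mean level, with a point per stage and exact Poisson 95% intervals that are mostly smaller than the point. The pre-pubertal point lies left of the pubertal and adult points in every row, and Rplp0 and Rps27l are the 2 rows in which the pubertal point lies right of the adult one. Members under 100 CPM at pre-puberty are drawn only because a later stage reached 100 CPM.

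The promoters of the members are shown because their mRNAs are expected from background knowledge to start in a pyrimidine tract. RefSeq promoter windows (GRCm38.p6, 250 bases before to 50 after the start) were at hand for 61 of the 81 members. 5 of the more abundant members that hold the letters CTTTC on the sense strand from 40 bases before to 20 after the start are printed 5′ to 3′ with those letters in capitals.
Rpl4, chr9:64173347-64173406, plus strand: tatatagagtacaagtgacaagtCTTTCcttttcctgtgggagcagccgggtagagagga
Rpl22, chr4:152325686-152325745, plus strand: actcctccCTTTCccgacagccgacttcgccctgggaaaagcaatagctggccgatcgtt
Rplp2, chr7:141447611-141447670, plus strand: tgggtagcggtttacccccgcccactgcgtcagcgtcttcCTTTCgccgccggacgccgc
Rpl15, chr14:18270967-18271026, minus strand: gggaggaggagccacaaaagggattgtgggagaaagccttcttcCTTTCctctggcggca
Rpl13a, chr7:45128726-45128785, minus strand: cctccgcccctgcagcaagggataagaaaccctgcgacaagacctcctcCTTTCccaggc
In Rplp2 the capitals begin at the annotated start itself, and in Rpl15 and Rpl13a 4 and 9 bases after it. In Rpl4 and Rpl22 they lie upstream of it, beginning at positions -17 and -32, outside an mRNA that begins there. The Rpl22 window lies inside the span of the gene (chr4:152324436-152334082), so its start is not the outermost one.

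Within 20 bases before to 30 after the start, CTTTC stood on the sense strand of 22 of the 61 members (36.1%) and of 2069 of 27025 genes with a window (7.66%). CCGGAAG, the core letters bound by ETS family factors, occurred on either strand of the whole window in 25 members (41.0%) and in 9.93% of all genes. TCGCGAGA occurred on either strand in 10 members (16.4%) and 1.13% of genes, and TATAAA in 7 members (11.5%) and 15.7% of genes. In the sense-strand window near the start the order for TATAAA was the opposite, with 3 members (4.92%) and 0.973% of genes. Of the other 6 letter strings searched, on either strand, GGAAG (part of CCGGAAG) was in 91.8% of members and 73.9% of genes, AAGATGGC in 8.20% and 3.19%, CTTTTC in 27.9% and 24.3%, CTCTTT in 44.3% and 25.6%, GGGCGG in 59.0% and 38.2%, and TTTCC (which overlaps CTTTC) in 86.9% and 64.4%. Near the start on the sense strand, AAGATGGC was in 0 of 61 members and 0.659% of genes, and each of the other strings was in a larger share of members than of genes. These are counts of letters, not of bound sites.

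Gene by gene, most members had their lower level at pre-puberty. The comparison used the log2 ratio of pooled CPM after adding 5, for members that reached 10 CPM at one of the stages compared, and a ratio past 1 in either direction was counted as called. Against puberty, 61 of 65 members were lower at pre-puberty with a median log2 ratio of -0.997, and 32 (49.2%) were past -1, where 21.3% of the 9829 genes tested were, with a median over all genes of -0.00. Against adults, 61 of 64 members were lower with a median of -1.25, and 47 (73.4%) were past -1, beside 26.3% of 9763 genes and a median of 0.16. The members higher by more than 1 were Rpl3 against puberty and Rpl30 against adults, beside 23.4% and 33.5% of genes. The 2 comparisons share the pre-pubertal cells.

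Puberty and adulthood lay closer together. The median log2 ratio of puberty over adult was -0.38 over 66 members, of which 57 were lower at puberty, beside a median of 0.08 over 9336 genes. Past 1 were Rpl21 and Rpl3 on the lower side, beside 19.9% of genes, and Rpl30 and Rpl17 on the higher side, beside 27.6% of genes. Once the highest cell of every stage was left out, Rpl21 (-0.41) and Rpl3 (-0.93) were no longer past -1, and 39.2% of the adult reads of Rpl3 came from 1 cell. In cells of 200000 to 600000 reads the median over members was -0.09, but that window also changes which cells are compared.

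**Figure D3:**
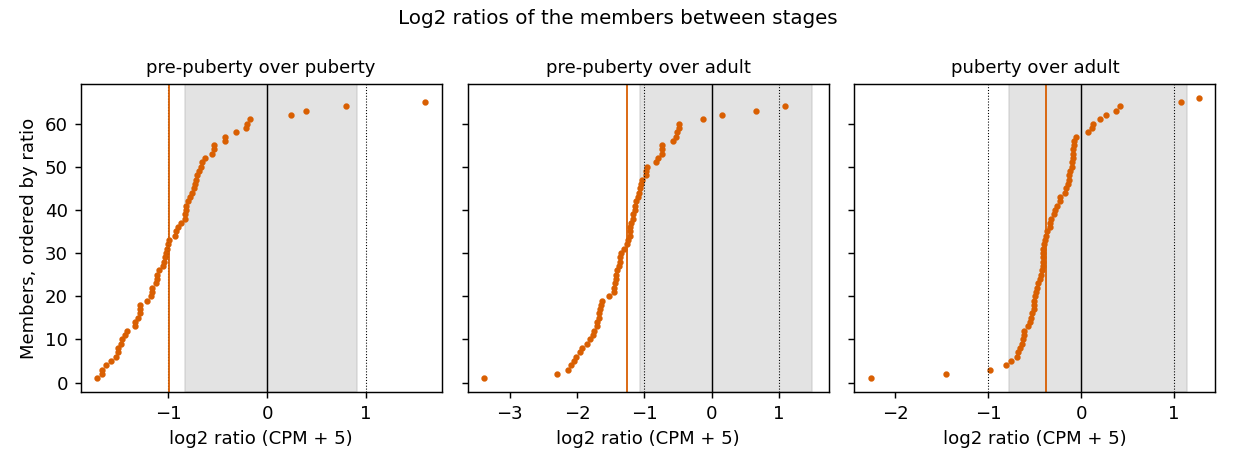
Log2 ratio of each member between 2 stages (x axis, CPM + 5), members ordered by ratio (y axis), in 3 panels. The orange line is the median of the members, the grey band the middle 50% of all genes tested, and the dotted lines mark ratios of -1 and 1. The medians are -0.997, -1.25 and -0.38.

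Of the members that reached 100 CPM at pre-puberty or puberty, all 29 had the lower level at pre-puberty, with log2 ratios from -1.68 to -0.54. Members under 100 CPM at pre-puberty, Rpl26, Rplp1 and Rpl22 among them, entered this set through puberty alone, so the filter fixed their direction. The 17 members at 100 CPM or more at all stages could have gone either way. The 4 lowest of the 29 were Rpl26, Rplp1, Rps20 and Rpl22. Rpl26 (Entrez 19941, chr11:68901566-68904534), a large subunit protein, ran from 0 through a median of 56.3 to 290.5 CPM over pre-pubertal cells, from 12.7 through 206 to 1269 CPM over pubertal cells and from 13.0 through 276 to 751 CPM over adult cells. No pubertal or adult cell lacked it, although the ranges overlapped. Its pooled levels of 68.8, 230.8 and 309 CPM gave log2 ratios of -1.68 to puberty and -2.09 to adults. The least changed of these members were Rpl8 (-0.54), Rplp2 (-0.69), Rpl4 (-0.74) and Rps25 (-0.76), a small subunit protein used by some viral entry sites. Rps20, a protein of the small subunit head, went from 186 to 565 to 765 CPM, a log2 ratio of -1.58 to puberty and -2.01 to adults.

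Against adults, all 34 such members were lower at pre-puberty. Again, only the 17 at 100 CPM or more at all stages could have gone either way, and the others entered through adults alone. Rps28 (Entrez 54127, chr17:33823036-33824562), a small subunit protein near the mRNA exit, ran from 0 through a median of 14.9 to 86.7 CPM at pre-puberty, from 3.54 through 57.7 to 433 CPM at puberty and from 3.91 through 100.4 to 261 CPM in adults. Its highest pre-pubertal cell was under the adult median, and its log2 ratio to adults was -2.29. Rpl22 (Entrez 19934), a large subunit protein that ribosomes can do without, had a ratio of -2.14. At the other end were Rplp0 (-0.74), Rpl4 (-0.98), Rps25 (-1.05) and Rps27l (-1.07).

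Single cells decided the values of a few genes. Rpl21 (Entrez 19933, chr5:146832890-146837032), of the large subunit, had the lowest ratios to adults, -3.38 for pre-puberty and -2.26 for puberty, but 76.8% of its adult reads came from 1 cell at 5507 CPM. Its adult cell median was 35.2 CPM, beside 5.60 and 20.2 CPM at pre-puberty and puberty, and once the highest cell of every stage was left out its ratios were -1.50 and -0.41. Rpl15 (Entrez 66480, chr14:18267823-18270986), also of the large subunit, drew 67.0% of its adult reads from 1 cell. Without the top cells its adult level was 62.0 in place of 179 CPM, and its ratio of puberty over adult turned from -0.75 to 0.46. Its cell medians were 0, 5.26 and 12.3 CPM. Rps7, a small subunit protein, had a ratio of puberty over adult of -0.68 with and -0.70 without the top cells.

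The genes of the ribosomal stalk, which recruits elongation factors, had unequal ratios. Rplp0 (Entrez 11837, chr5:115559467-115563729), its base, had cell medians of 152.05, 309 and 249 CPM and pooled levels of 208, 384 and 350.3 CPM. It was 1 of 2 members above 100 CPM with a higher pooled level at puberty than in adults (log2 ratio 0.13). Rplp1 (Entrez 56040), one of the acidic stalk proteins, stood at 68.9, 229.9 and 244 CPM, and Rplp2 (Entrez 67186), its partner, at 69.6, 115 and 154.5 CPM. The log2 ratio of pre-puberty over puberty was thus -0.87, -1.67 and -0.69 for the 3 genes. Rpsa (Entrez 16785), a small subunit protein also known as the laminin receptor precursor, stood at 73.7, 158.4 and 168 CPM, with a ratio of -1.05 to puberty and -0.08 between puberty and adults.

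Copies of ribosomal protein genes limit what the reads can say, because the treatment of reads that fit several places is not given in the sources used here. For each member, the share of 100-base windows of its GENCODE vM21 transcripts that occur in no other annotated gene was counted. That share reached 50% in 47 members, and 78 of 81 members shared a stretch of 50 bases with another gene, mostly pseudogenes. Among the 78 members other than Rpl3l, Rpl10l and Rpl39l, the mean level had a median of 23.3 RPKM in the 16 with under 25% unique windows, 39.9 RPKM in 18 with 25 to 50%, 71.7 RPKM in 17 with 50 to 75% and 284 RPKM in 27 with 75% or more. The Spearman correlation of level with uniqueness was 0.46 over all 81 members and 0.62 over these 78, a description over genes of the same libraries. Low levels of members with many copies are therefore not read as low expression here.

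**Figure D4:**
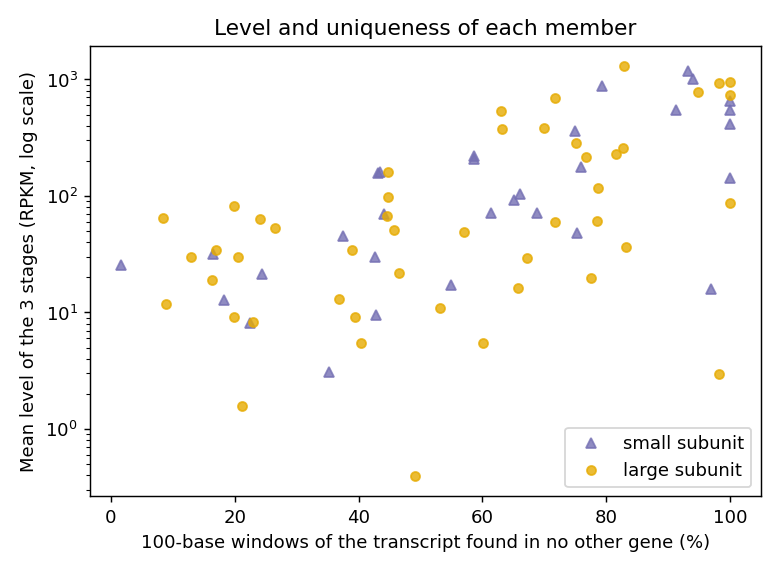
Mean level over the 3 stages (y axis, RPKM on a log scale) against the share of 100-base windows found in no other gene (x axis, %), 1 point per member, triangles for the small and circles for the large subunit. Rpl3l, Rpl10l and Rpl39l, near 0 RPKM, are not drawn. The median level is 23.3 RPKM under 25% and 284 RPKM at 75% or more.

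The stage differences held in both kinds of members. In those with at least 50% unique windows, 40 of 40 stood lower before puberty than at puberty (median -1.12), 40 of 40 lower before puberty than in adults (median -1.43), and 36 of 41 lower at puberty than in adults (median -0.38), all as log2 ratios. In the others the medians were -0.72, -1.05 and -0.40. Of the members that reached 10 CPM, the 4 with a higher level at pre-puberty than at puberty (Rpl3, Rpl10, Rps27 and Rpl9) and the 3 with a higher level than in adults (Rpl3, Rpl10 and Rpl30) belonged to the second kind. Rpl3 (Entrez 27367, chr15:80077781-80083406), a core protein of the peptidyl transferase centre with 20.6% unique windows and stretches shared with 26 genes, had cell medians of 11.0, 9.91 and 18.8 CPM but pooled levels of 56.8, 15.4 and 50.9 CPM. Rpl10 (Entrez 110954), which completes the large subunit and has 8.43% unique windows, had cell medians of 6.64, 9.84 and 19.1 CPM and pooled levels of 71.1, 38.8 and 43.1 CPM. For both genes the cell median was lower at pre-puberty than in adults while the pooled level was higher, and the highest pre-pubertal cells reached 590.4 and 654 CPM.

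Rpl32 and Rpl32l are near copies with like counts. Rpl32 (Entrez 19951, chr6:115805514-115808743) stood at 178, 516 and 748 CPM, and Rpl32l (Entrez 621697, chr10:20208439-20209030) at 176, 488 and 649 CPM. Their levels followed each other over cells, with Spearman correlations of 0.93 at pre-puberty (116 cells), 0.86 at puberty (119 cells) and 0.94 in adults (43 cells), a description of pairs counted in the same libraries. RefSeq lists Rpl32l as protein-coding and GENCODE as a processed pseudogene. Their GENCODE transcripts were identical at 97.5% of 398 aligned positions, with 10 differences and 1 gap. A stretch of 60 bases from each, 5′ to 3′, has the 4 bases that differ in capitals.
Rpl32, transcript bases 306 to 365: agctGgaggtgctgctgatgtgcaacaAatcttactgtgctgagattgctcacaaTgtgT
Rpl32l, transcript bases 245 to 304: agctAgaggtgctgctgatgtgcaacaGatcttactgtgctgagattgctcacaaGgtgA
Every 100-base window of either transcript is unique when an exact match is asked for, but an aligner that allows mismatches can place a read on either gene. The 2 levels are therefore uncertain as levels of separate genes. Without Rpl32l the share of member reads was 0.617%, 1.29% and 1.63%.

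The 5 members whose symbols end in l were read to very different degrees, with Rpl32l (above) and Rps27l abundant and the others at or near 0. Rps27l (Entrez 67941, chr9:66944624-66949522), a paralogue of Rps27 and a known p53 target, had cell medians of 98.9, 256 and 195 CPM and pooled levels of 132, 343 and 283 CPM, with all of its windows unique. Rps27 (Entrez 57294) stood at 15.6, 10.7 and 17.4 CPM with 1.63% unique windows, so its own level cannot be read from these counts. Per length, Rps27l was at 285, 739 and 611 RPKM and Rps27 at 27.1, 18.7 and 30.3 RPKM. Rpl3l, a paralogue of muscle, and Rpl10l, a paralogue of testis, had 1 read each, both at puberty. Rpl39l had 0 reads at every stage, which allows a level of up to 0.0693 CPM at pre-puberty, 0.0375 CPM at puberty and 0.138 CPM in adults. Its relative Rpl39 on chromosome X stood at 0.854, 1.58 and 1.10 CPM.

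In pooled levels the 4 members on chromosome X did not share a direction. Rps4x stood at pooled levels of 46.8, 86.6 and 114 CPM and Rpl36a at 4.80, 11.2 and 12.1 CPM, whereas the pooled level of Rpl10 was highest at pre-puberty, as given above, and Rpl39 stayed under 2 CPM. The exception rests on pooling, as 1 cell held 23.3% of the pre-pubertal reads of Rpl10. Its cell medians of 6.64, 9.84 and 19.1 CPM were lowest at pre-puberty.

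Across single cells the members moved together to a moderate degree. Each of the 17 members at 100 CPM or more at all stages was compared with the summed rest of the members over the cells of a stage, as shares of all reads. The Spearman correlation had a median over the 17 genes of 0.50, 0.59 and 0.53 in order of age. The lowest was Rps27l at pre-puberty (0.12) and at puberty (0.10), and the highest was Rpl32 at both (0.77 and 0.76), whose copy Rpl32l is part of the rest. In adults the lowest was Rps3 (0.25) and the highest Rpl41 (0.66). The points share their library and its total. The summed share of the members also had correlations of 0.40, 0.42 and 0.31 with that of the mitochondrial ribosomal proteins. With the ribosomal components that the rule leaves out, the values were 0.52, 0.61 and 0.27. Moving together was therefore not shown to be particular to the members. The share of member reads had a correlation with reads per cell of 0.25, -0.19 and 0.08 at the 3 stages, with genes detected of 0.42, -0.12 and -0.02, and with the mitochondrial share of 0.28, -0.25 and -0.31.

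Lists of genes that work beside the members had medians below 0 for pre-puberty over either later stage, but not all of their genes were lower. The 7 ribosomal components outside the rule all had lower levels at pre-puberty, with median log2 ratios of -1.05 to puberty and -1.15 to adults and 4 and 6 of them past -1, beside the 21.3% and 26.3% of all genes given above. The most abundant, Rack1, a scaffold on the small subunit, stood at 467, 864 and 1130.4 CPM, and Rps3a1 at 139, 264 and 307 CPM. Among 16 translation genes with TOP mRNAs, 13 were lower at pre-puberty in both comparisons, with medians of -0.66 and -0.96. Past -1 were 5 (31.25%) and 7 (43.75%) of them, beside 21.3% and 26.3% of all genes. Past 1 were 0 and 1, beside 23.4% and 33.5% of all genes. Of the 16 genes, Eef1a1, which brings tRNA to the ribosome, stood at 1304, 1872 and 2040.3 CPM, Npm1, a nucleolar chaperone, at 279.9, 898 and 829.8 CPM, and Eef1b2, which reloads Eef1a1, at 326, 815 and 866 CPM. Ribosome biogenesis genes had medians of -0.33 over 18 tested and -0.70 over 17 tested, but 7 and 5 of them were higher at pre-puberty. Past -1 were 3 (16.7%) and 4 (23.5%) and past 1 were 2 (11.1%) and 3 (17.6%), all under the shares of all genes. Ncl, a nucleolar protein, stood at 686, 925 and 923 CPM and Nop56, of the box C/D particles, at 38.0, 82.5 and 269.6 CPM. Rrn3, an initiation factor of RNA polymerase I, went the other way, with 312, 167 and 43.1 CPM. The mitochondrial ribosomal proteins, which serve a separate ribosome, had medians of -0.53 over 75 and -0.33 over 74 genes, with 16 and 25 higher at pre-puberty. Past -1 were 18.7% and 28.4% of them, near the 21.3% and 26.3% of all genes, and past 1 were 0 and 4. For puberty over adult, the 4 lists had medians of -0.24, -0.06, 0.07 and 0.13 in the same order. Medians near 0 did not mean unchanged genes. Of the ribosome biogenesis genes, 7 of 16 (43.75%) were past -1 and 3 (18.75%) past 1, beside 19.9% and 27.6% of all genes. Of 72 mitochondrial ribosomal proteins, 7 (9.72%) were past -1 and 12 (16.7%) past 1.

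Cell classes were formed without ribosomal protein genes, by clustering the 278 kept cells into 8 groups on other variable genes. Cluster 1 (85 cells, all of pre-puberty) was Schwann-like, with a median of 18 of 24 markers, 5 of 14 fibroblast markers and Ncam1, Egfl8 and Kcna1 among its leading genes. Clusters 2 (38 cells) and 3 (37 cells) were mature luminal-like and luminal-like, with medians of 8 and 9 of 10 luminal and 5.5 and 7 of 10 mature luminal markers, and cluster 8 (14 cells) was luminal progenitor-like, with Trf and Wfdc18 beside the milk protein genes Csn1s1, Lalba and Csn2 in the lead. Cluster 2 had Esr1 and Foxa1 among its leading genes, but cluster 3 carried more of the mature luminal markers. The names of clusters 2 and 3 therefore do not rank them by maturity. Clusters 4 (32 cells) and 7 (19 cells) were basal-like, with medians of 7.5 and 8 of 15 basal markers. Cluster 4 was led by Myh11 and carried 4 of 10 luminal markers too, whereas cluster 7 was led by Sox11 and Col9a1, with no marker of any list among its 10 leading genes. Clusters 5 (31 cells, 17 Schwann and 8 basal markers) and 6 (22 cells, 12 basal and 8 luminal markers) carried markers of several types and were left unnamed.

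The share of member reads differed between clusters within a stage. At puberty it was 1.83% in basal-like cluster 7 (95% exact interval 1.82 to 1.84%, 17 cells from 1.27 to 2.99%), 1.64% in unnamed cluster 6 (18 cells), 1.397% in mature luminal-like cluster 2 (26 cells), 1.34% in luminal progenitor-like cluster 8 (8 cells), 1.06% in luminal-like cluster 3 (37 cells from 0.617 to 1.79%) and 0.846% in basal-like cluster 4 (12 cells from 0.223 to 2.56%). The 1 pubertal cell of cluster 5 stood at 0.743%. The cells of the other 6 clusters overlapped. Of these 6, the 2 basal-like clusters were the highest and the lowest, with 29 cells together at 1.49%, beside 1.21% in the 71 luminal-like cells. The mitochondrial share of reads was 9.12% in cluster 7 and 15.7% in cluster 4, and its part in the difference was not tested.

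**Figure D5:**
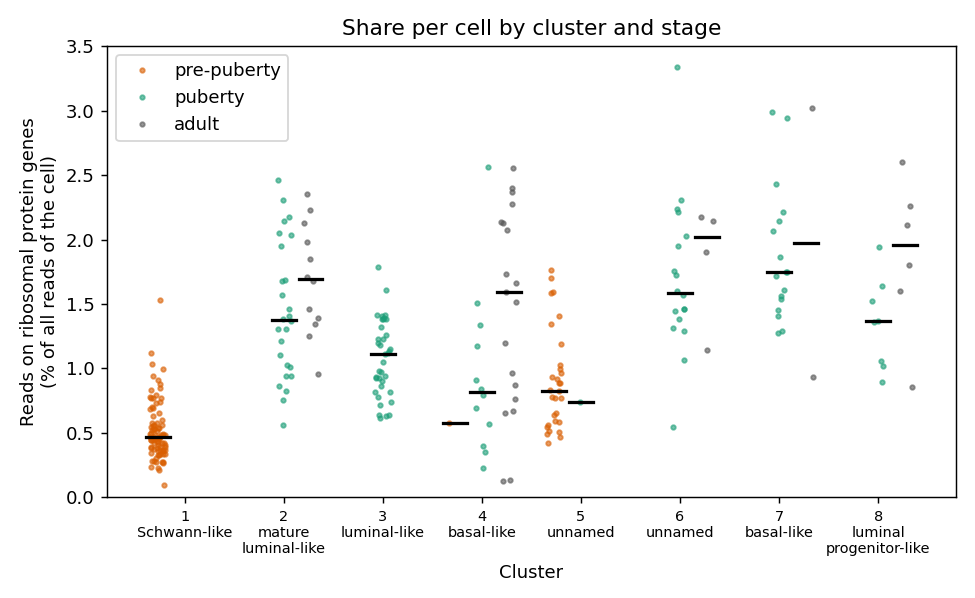
Share of reads on the 81 genes per cell (y axis, % of all reads of the cell) in the 8 clusters (x axis), by stage (colour), with a point per cell and a line at each median. Cluster 1, all pre-pubertal, lies lowest with a median of 0.470%, and the adult median lies above the pubertal one in clusters 2, 4, 6, 7 and 8. In cluster 7 the adult median is that of 2 cells (0.931% and 3.02%), and the pooled share was lower in adults (1.74%) than at puberty (1.83%).

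In adults the order differed, with 1.97% in luminal progenitor-like cells (6 cells), 1.84% in cluster 6 (4 cells), 1.77% in cluster 2 (12 cells), 1.74% in cluster 7 (2 cells) and 1.48% in cluster 4 (19 cells from 0.126 to 2.55%). The luminal-like clusters together stood at 1.21% at puberty (71 cells) and 1.84% in adults (18 cells). Cluster 3, which held 37 of those pubertal cells, had no adult cell. The members' median log2 ratio of adult over pubertal luminal-like cells was 0.62 over 64 members, of which 54 were higher, 7 past 1 (22.5% of genes) and 4 past -1 (37.8% of genes), with a median of -0.29 over all genes.

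At puberty the 29 basal-like cells had higher levels than the 71 luminal-like cells for 48 of 65 members, with a median log2 ratio of 0.24 beside -0.07 over 9101 genes. Past 1 were 2 members, beside 24.6% of genes, and past -1 was 1 member, beside 28.8% of genes. Highest among members at 100 CPM were Rpl15 (1.403, 173 against 62.1 CPM), Rpl8 (1.03, 1159 against 563 CPM), Rps3 (0.72) and Rplp0 (0.64). Lowest were Rps27l (-0.85, 218 against 397 CPM), Rpl22 (-0.60), Rplp1 (-0.26) and Rpl26 (-0.23). Over all pubertal cells Rpl15 had a median of 5.26 CPM, and 1 cell held 17.6% of its reads. Its class ratio without that cell was not computed. The 2 basal-like clusters disagreed: cluster 7 alone had a median of 0.48 with 62 of 66 members higher, 6 past 1 (24.6% of genes) and 1 past -1 (31.3% of genes). Cluster 4 alone had a median of -0.77 with 56 of 63 lower, 0 past 1 (21.4% of genes) and 21 past -1 (54.0% of genes), where the median over all 8554 genes tested was -1.29. In adults the 21 basal-like cells stood at 1.52% and the 18 luminal-like cells at 1.84%, with a median log2 ratio of -0.22 over 65 members, 7 past 1 (35.0% of genes) and 9 past -1 (36.8% of genes). That order turned when cells were classed by keratin reads, with 1.92% in 5 basal and 1.76% in 22 luminal adult cells. The turned order rests on few cells, as 1 of the 5 held 35.7% of their member reads. The 12 adult cells with both keratins, which are in neither class, stood at 1.60%.

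Within pre-puberty, cluster 5 had more member reads than the Schwann-like cluster 1, 0.924% (30 cells from 0.419 to 1.77%) against 0.544% (85 cells from 0.0963 to 1.53%). Of 60 members, 53 were higher in cluster 5, with a median log2 ratio of 0.72, 10 past 1 (23.7% of genes) and 0 past -1 (20.0% of genes), beside a median of 0.09 over 9384 genes. Cells could also be classed by keratin reads alone, with Krt14 for basal and Krt8 or Krt18 for luminal cells at more than 40 RPKM. By that gate, pre-pubertal cells with basal keratin (10 cells) stood at 0.899%, with luminal keratin (2 cells) at 0.937%, with both (7 cells) at 0.741% and with neither (97 cells) at 0.588%. The same 4 classes stood at 1.57% (5 cells), 1.24% (80 cells), 1.61% (24 cells) and 1.33% (10 cells) at puberty, and at 1.92% (5 cells), 1.76% (22 cells), 1.60% (12 cells) and 1.22% (4 cells) in adults. In each keratin class the pre-pubertal share was the lowest of the 3. These classes do not part stage from cell type. Of the kept pre-pubertal cells, 85 and 30 were in clusters 1 and 5, with medians of 18 and 17 Schwann markers, and 1 was in basal-like cluster 4. The pre-pubertal luminal keratin class rests on 2 cells, of which 1 held 79.6% of its member reads.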

How the data were processed

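Counts of read pairs per gene were deposited per cell by the authors, who mapped reads to mm10 with Subread 1.4.6 and counted them with featureCounts on RefSeq genes. Reads carry no molecular identifiers. The file with a table of the whole series was not used. Gene IDs were matched to RefSeq symbols (25275 of 27179), and ribosomal protein family genes (124), 15 mitochondrial genes and unmatched genes were left out of the coverage filter and the clustering, but not of the totals. Levels are summed counts per 1000000 reads on all genes (CPM), with exact Poisson intervals, and shares have exact binomial (Clopper-Pearson) 95% intervals. Clusters came from Ward linkage on 20 principal components of 1000 variable genes, log2(CPM + 10). No doublet caller was run. Leading genes were those with the highest ratio to other kept cells among genes at 100 CPM or more and read in 50% of a cluster's cells. Named genes were the 10 most abundant members, the 4 at each end of each comparison among members at 100 CPM or more, the stalk genes, the l-suffix paralogues (Rps4l is no protein-coding gene in RefSeq) and exceptions picked after their values were seen. Members and lists were chosen with earlier results of these data known. A few genes that these rules name are not reported here. The code for the ratios was checked on simulated counts with known changes, which is no test of these data. Python 3.11.15, numpy 2.4.6, scipy 1.17.1 and Biopython 1.88 were used.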

Additional observations from a re-analysis of the deposited data

Results flagged for a closer look

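Ribosomal protein reads were also seen in the 68 cells left out by the coverage filter, which enter no comparison above. Their pooled share of reads was 0.469% at pre-puberty (28 cells), 0.659% at puberty (17 cells) and 1.09% in adults (23 cells, of whose member reads 79.5% came from 1 cell). Mitochondrial genes held 20.1%, 58.1% and 57.7% of the reads of these cells. With mitochondrial reads left out of the total, the shares were 0.587%, 1.57% and 2.57%, beside 0.663%, 1.51% and 1.93% in kept cells. The 34 annotated ribosomal protein pseudogenes, which the rule leaves out, held 0.0326%, 0.0727% and 0.0958% of reads at the 3 stages in kept cells. No control samples exist for either value.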

How the results depend on the processing

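No paired analysis was possible because the shared numbers in the labels only number the cells of each stage, and no test was run. Each stage is 1 sample, so nothing here measures the spread between mice. Shares rest on so many reads that their counting intervals are narrower than the shifts most settings cause, and the cause of the shifts was not tested. The order pre-puberty, puberty, adult was the same under every setting tried for the stages. Shares are given in that order. They were 0.632%, 1.32% and 1.64% without the coverage filter, 0.654%, 1.34% and 1.65% with at least 200000 reads and 2500 genes, 0.621%, 1.37% and 1.64% with equal weight for each cell, 0.663%, 1.51% and 1.93% without mitochondrial reads in the total, 0.622%, 1.55% and 1.66% in cells of 200000 to 600000 reads, 0.667%, 1.41% and 1.79% with pseudogenes, 0.619%, 1.32% and 1.68% without the cell with most member reads, and 0.617%, 1.29% and 1.63% without Rpl32l, a setting chosen after seeing the data. Pre-pubertal cells from 38 on gave 0.620%. The median log2 ratio of pre-puberty over puberty moved to -1.14 in the depth window, and to -1.12 with members of at least 50% unique windows and -1.18 with members at 100 CPM or more, both chosen after seeing the data. For pre-puberty over adult it moved to -1.49 with members at 100 CPM or more, and for puberty over adult to -0.0896 in the depth window. The members at 100 CPM or more include those that reached it only at the later stage, so their medians partly reflect that filter. Counts of members past -1 stayed within 1.5 times their main values of 32 and 47. By class, the share at puberty of basal-like cells was 1.57% with keratin gates, 0.846% with 6 clusters, in which cluster 4 alone remained basal-like, 1.49% with equal weight and 1.68% without mitochondrial reads, and that of luminal-like cells 1.24%, unmoved with 6 clusters, 1.24% and 1.38%. In adults basal-like cells stood at 1.92%, 1.48%, 1.51% and 1.81% under these settings, and luminal-like cells at 1.76% with gates, 1.75% with equal weight and 2.03% without mitochondrial reads. Basal-like cells were thus above luminal-like cells at puberty under the gates and below them with 6 clusters, and in adults above them under the gates and below them with the other settings. The gated basal class held only 5 cells at puberty and 5 in adults, because cells with both keratins were left out of it. Schwann-like cells of pre-puberty stood at 0.521% with equal weight and 0.568% without mitochondrial reads. With 6 clusters they stood at 0.635%, the same as all kept pre-pubertal cells, so that setting does not check cluster 1 alone.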
